A study of Drosophila melanogaster with 27 samples.

Results

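The 10 genes described here are the eye selector genes ey, toy, so, eya and dac and the T-box genes Doc1, Doc2, Doc3, H15 and mid of Drosophila melanogaster, out of 13922 protein-coding genes on 6 chromosome arms. They were listed by name, all 10 were found in the RefSeq gene table, and each was compared with the authors' peaks over its body and over 20 kb on either side. The 10 genes form 7 loci, since the Doc genes lie together on 3L and H15 lies next to mid on 2L, so genes of 1 locus share flanking peaks and are not independent. The study profiled histone H4 monomethylated at lysine 20 (H4K20me1) by CUT&RUN, in which an antibody guides a nuclease to chromatin and the fragments it frees are sequenced. Wing imaginal discs, the larval tissue that gives rise to the wing and the back of the thorax, were taken from Oregon-R wild-type female larvae of instar 3 at the wandering stage. Libraries made with H4K20me1 antibody (n = 3) were compared with libraries made without primary antibody (n = 3), each from 20 discs of animals raised at 25 °C. The 8 mutant and transgenic control groups of the study, with 21 libraries, were not analysed here.

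In flies H4K20me1 is laid down by Set8, the monomethyltransferase of H4 lysine 20. The eye selector genes encode nuclear proteins that act in a network to specify the eye. The Pax6 proteins of toy and ey stand at its head, the homeodomain protein of so and the transcriptional cofactor and phosphatase of eya act as partners, and dac encodes a nuclear factor of the Ski and Sno type. T-box proteins are DNA-binding transcription factors. The Doc genes are known for roles in the amnioserosa and heart, and H15 and mid for roles in the heart, the ventral leg and the embryonic segments. Genes of this kind are known as targets of Polycomb repression where they are not expressed. No Polycomb mark and no RNA level was analysed here, so the name Polycomb target is background and was not checked.

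None of the 10 genes had an H4K20me1 peak in its body. Among all protein-coding genes, 5339 (38.3%) had a peak, counted as at least 1 bp of overlap. Within 20 kb of the body, 8 of the 10 had a peak, all of them outside the body, and the exceptions were H15 and mid. Of all protein-coding genes 81.5% had a peak in the body or within 20 kb, and of the 8583 without a body peak 70.0% had one within 20 kb. Within 5 kb, 2 of the 10 genes had a peak, against 64.3% of all protein-coding genes with one in the body or within 5 kb. Of the 8573 other protein-coding genes without a body peak, 42.1% had one within 5 kb. The peak list gives 1 set of intervals for the 3 antibody libraries, so no value per library and no error between libraries can be given. Signal too weak for the authors' peak caller would not show in the list, so a body without a peak is not shown to be free of the mark.

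Of the 10 genes all but Doc3 are longer than the median protein-coding gene of 2163 bp. The eye selector genes are long, between 15523 bp (so) and 23485 bp (ey), and belong to the longest 10% of protein-coding genes, of which 51.9% had a peak. The T-box genes ranged from 2054 bp (Doc3) to 12314 bp (H15). In the length classes of these 5 genes, which split all protein-coding genes into 10 classes of equal size, the share with a peak was lowest at 36.9% for the class of Doc3 and highest at 57.0% for that of Doc2 and H15. Among the 6391 genes whose length fell between those of Doc3 and ey, 50.7% had a peak. No set test was made, because the list was chosen with results of these data known.

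**Figure D1:**
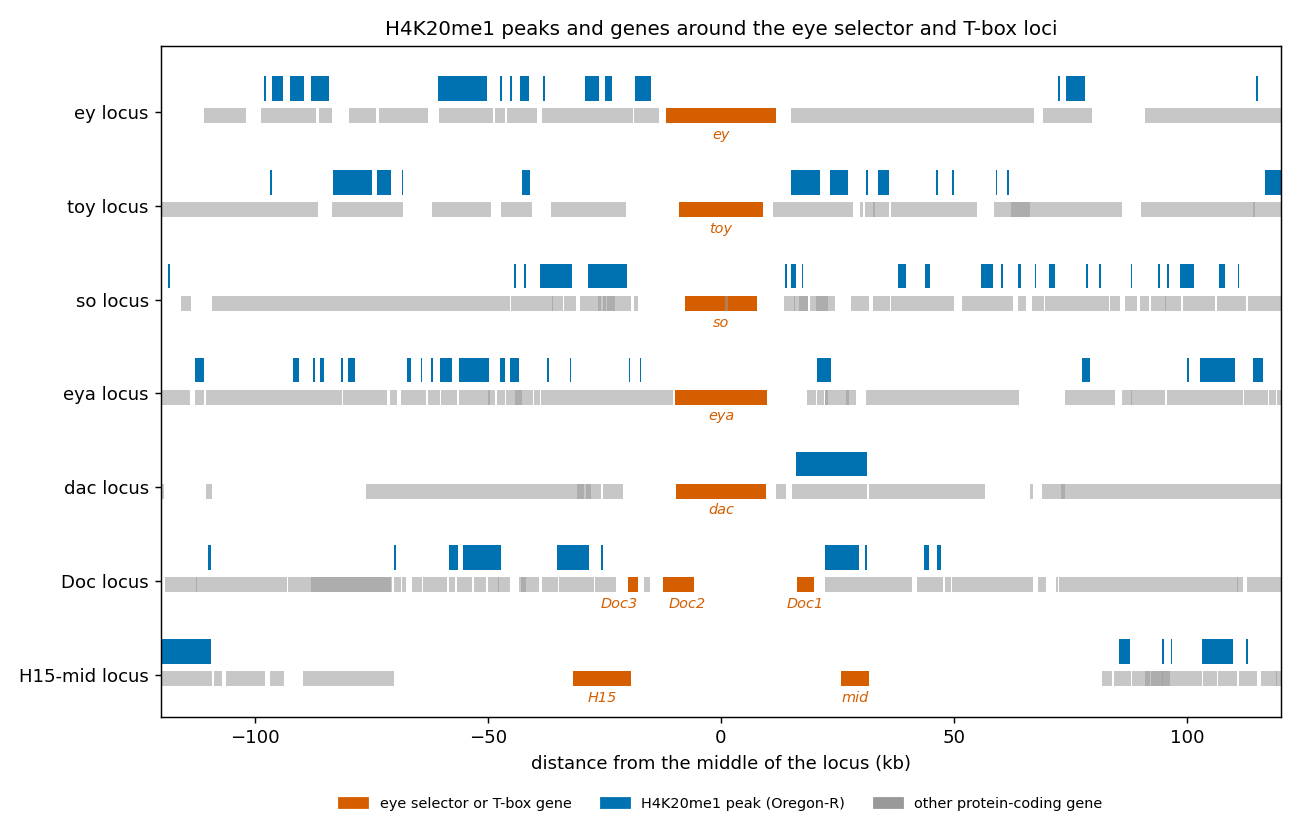
Map of the 7 loci, each centred on the eye selector or T-box genes it holds and drawn to 120 kb on either side; the x axis is distance in kb, orange bars are those genes, blue bars H4K20me1 peaks of Oregon-R discs and grey bars other protein-coding genes. No blue bar lies over an orange one, peaks begin 2.46 to 12.8 kb from the 8 genes of the upper 6 loci, and H15 and mid lie in an interval of 194.7 kb without a peak.

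The Pax6 gene ey (chromosome 4, 697689 to 721173, dm6) was flanked by peaks on one side only. The nearest ended 3338 bp from the side of lower coordinates and lay within myo, which encodes a TGF-beta family ligand and was covered to 61.5%. Another 2 peaks within 20 kb lay in CG11360, so that 39.0% of that flank was covered. On the other side the first peak lay 60527 bp away, beyond bt, the gene of the giant muscle protein projectin, which had no peak over its 52075 bp. RefSeq strand was not in the table used, so sides are given by coordinate and not as upstream or downstream.

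Its paralogue toy (chromosome 4, 989725 to 1007922) showed the same one-sided arrangement in the opposite direction. The nearest peak began 5878 bp from the side of higher coordinates, within PlexA, the gene of a semaphorin receptor, which was covered to 59.6% by 2 peaks. These covered 51.3% of that 20 kb flank. On the side of lower coordinates the first peak lay 31824 bp away, and fuss, the nearest gene there, had none. Both Pax6 genes thus lacked a peak on a chromosome where 45 of 80 protein-coding genes (56.3%) had one.

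The homeobox gene so (2R, 7419350 to 7434872) lay between peaks at 12349 bp on the lower and 5978 bp on the higher side. The peak on the lower side was 8500 bp wide and lay wholly within Eaf, which encodes a partner of the elongation factor ELL, and over CG11112, CG11113, CG43123 and CG43267, small genes nested there that it covered completely. On the higher side were 3 peaks of 150 to 950 bp, in CG11123, sPLA2 and the overlapping annotations CG30503 and kappaB-Ras. The gene CG11145, nested within so, had no peak either.

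Around eya (2L, 6527447 to 6546976) the flanks held little covered sequence. The adjacent gene CG31637, which ends 450 bp from eya, had 4 peaks that together covered 650 bp (2.29%), and 2 of these, 150 and 200 bp wide, lay within 20 kb of eya, at the nearest 7446 bp away. On the other side a peak of 3050 bp began 10824 bp away. It covered COX5B, which encodes a subunit of cytochrome c oxidase, to 99.9%, its paralogue COX5BL completely and the tRNA methyltransferase gene Trmt6 to 49.8%. In all 8.50% of the flanks of eya was covered, the lowest share among the 8 genes with a flanking peak.

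By contrast dac (2L, 16466512 to 16485998) had the most covered flanks of the 10 genes, at 34.4%, from 1 peak. This peak was 15400 bp wide and traced the co-chaperone gene Tpr2 almost exactly, from 711 bp inside one end to 29 bp beyond the other, covering 95.6% of it. It began 6252 bp from dac, with the peak-free gene Nepl8 in between. On the side of lower coordinates no peak was found for 111761 bp, a stretch that holds the imaginal disc growth factor genes Idgf1, Idgf2 and Idgf3. The interval between the 2 peaks on either side of dac was 137.5 kb and contained 8 whole protein-coding genes.

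The Doc genes lay together in a single interval of 47.6 kb without a peak, which held Doc3 (3L, 9005196 to 9007249), Doc2 (3L, 9012686 to 9019246), Doc1 (3L, 9041375 to 9045042) and 1 other protein-coding gene, CG5194. The cluster itself spans 39847 bp, so the free interval was little wider than the cluster. Next to Doc1, a peak of 7250 bp began 2458 bp away, the shortest distance among the 10 genes. It started 62 bp inside Argk2 and ran into Argk1, both of which encode arginine kinases, and covered Argk2 to 95.2%. Next to Doc3, a peak of 550 bp in CG5087 ended 5295 bp away, followed by a peak of 6900 bp that lay mostly over smg, the gene of a translational repressor, and covered 84.5% of it. Doc2, in the middle, was 12785 bp from the nearest peak, the farthest among the 10 genes that still fell inside the 20 kb limit.

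H15 (2L, 5404280 to 5416593) and mid (2L, 5461639 to 5467610) stood farthest from any peak among the 10 genes. The nearest peak was 77679 bp from H15 and 53690 bp from mid, both beyond the 20 kb limit. Both lie in the same interval of 194.7 kb (2L, 5326601 to 5521300), the 16th widest of 1142 peak-free intervals on 2L. It overlaps 22 annotated genes, of which 13 are protein-coding and 8 are long noncoding RNA genes. No protein-coding gene lies within 20 kb of H15 or mid, and 45045 bp separate the pair. Among the protein-coding genes without a body peak, 4.81% were farther from the nearest peak than H15 and 10.3% farther than mid.

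**Figure D2:**
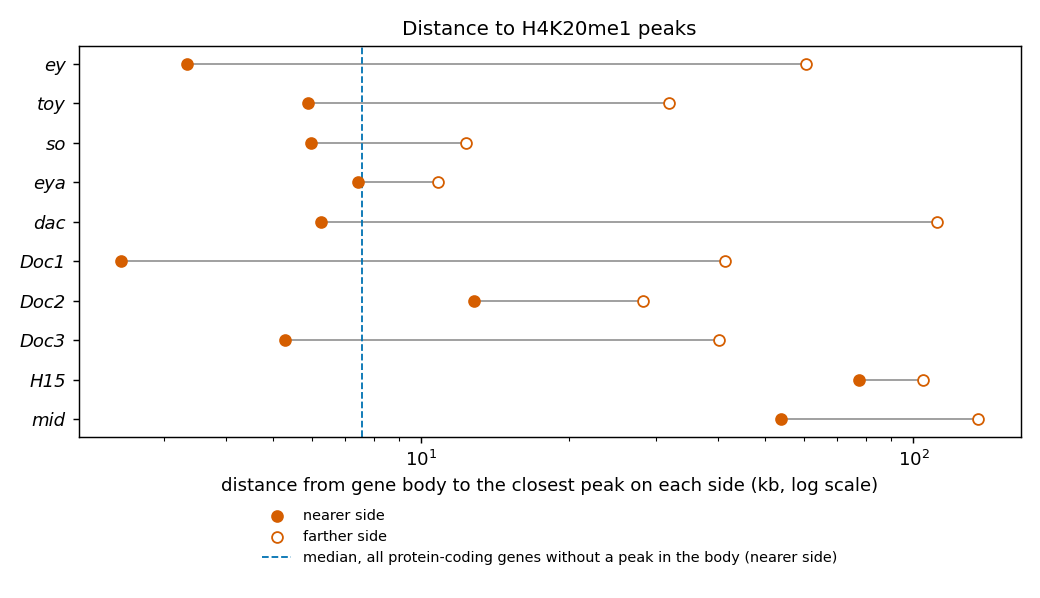
Distance in kb (log scale) from each gene body to the closest H4K20me1 peak on the nearer side (filled points) and on the farther side (open points); the dashed line marks the median on the nearer side over all protein-coding genes without a peak in the body, 7.58 kb. Of the 10 genes, 7 lie left of the line on the nearer side, whereas Doc2, mid and H15 lie to its right.

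Set against genes that also lack a body peak, most of the 10 genes were at an ordinary distance from the mark. Their median distance to the nearest peak was 6115 bp. Over all protein-coding genes it was 1337 bp, with genes that carry a peak counted as 0, and over the 8583 without a body peak it was 7585 bp (quartiles 1934 and 25298 bp). The eye selector genes lay within a narrow range, from 3338 bp (ey) to 7446 bp (eya), with a median of 5978 bp. The T-box genes spread from 2458 bp (Doc1) to 77679 bp (H15), with a median of 12785 bp.

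The widths of the peak-free intervals around the 7 loci were 194.7 kb for H15 and mid, 137.5 kb for dac, 87.3 kb for ey, 55.9 kb for toy, 47.6 kb for the Doc genes, 37.8 kb for eya and 33.9 kb for so. All are far above the median interval of 2.65 kb, and between 1.29% and 11.1% of the 6906 intervals were wider. Any gene without a peak is likelier to lie in a wide interval, however, and a long one can only lie in a long interval, so this comparison favours wide values. Of the 8572 protein-coding genes without a peak that lie between peaks, 67.7% lay in a wider interval than so, 64.5% than eya and 59.2% than the Doc genes. The share was 54.0% for toy, 40.1% for ey, 26.9% for dac and 13.6% for H15 and mid. Compared with genes of at least the same length that also lacked a peak, 92.7% lay in a wider interval than so, 93.2% than eya, 79.6% than toy and 68.5% than ey. For the Doc genes these shares were between 58.1% and 70.7%, for dac 43.2%, for H15 20.2% and for mid 16.8%. These comparison genes were as long or longer, and a longer gene needs a longer interval, so this measure leans the other way. It cannot show whether so and eya lay in short intervals for their length.

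**Figure D3:**
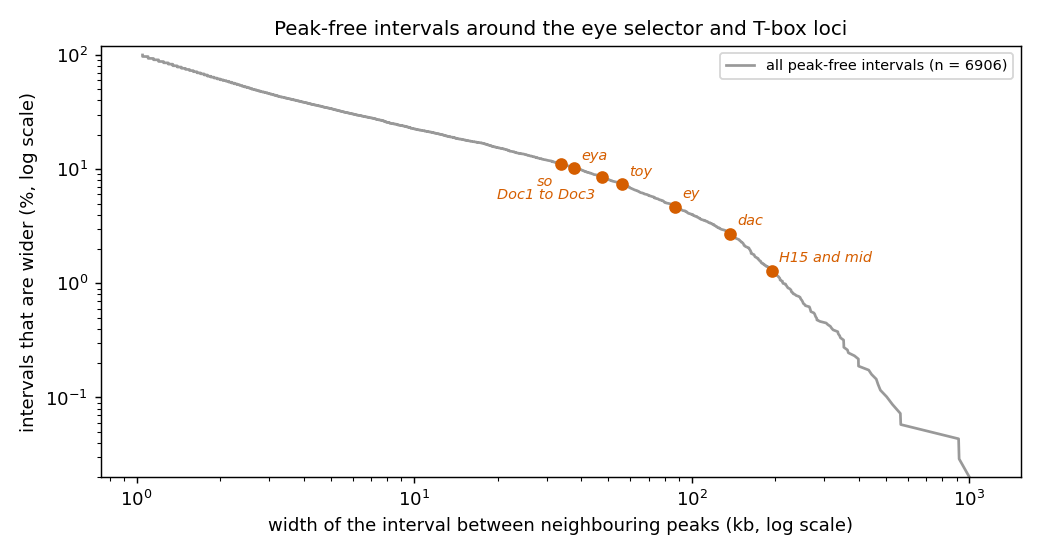
Width of the intervals between neighbouring H4K20me1 peaks (x axis, kb, log scale) against the percentage of intervals that are wider (y axis, log scale); the grey line shows all 6906 intervals and orange points those that hold the eye selector and T-box genes. The 7 points lie in the right-hand tail, from 33.9 kb at so to 194.7 kb at H15 and mid.

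Coverage near the 10 genes was low directly beside the body, higher between 5 and 20 kb and uneven beyond. In the first 5 kb on both sides, 4.20% of the sequence was covered on average and 2 of the 10 genes, ey and Doc1, had any covered sequence. The same measure was 8.97% in the other protein-coding genes without a body peak and 17.2% in all others. Between 5 and 10 kb the average was 18.0% for the 10 genes, 13.4% for the other genes without a body peak and 18.5% for all others. Between 10 and 15 kb it was 21.8%, 13.9% and 17.7% in the same groups, and between 15 and 20 kb 20.0%, 14.4% and 17.3%. Single genes varied widely, from 0% to 50% in each of these last 2 steps. Farther out the average for the 10 genes was lower again, at 8.06% between 20 and 25 kb, against 14.4% for the other genes without a body peak and 16.9% for all others. It was 13.2% between 25 and 30 kb, against 14.5% and 16.5%. Between 30 and 35 kb it was 18.1%, against 14.4% and 16.2%, and between 35 and 40 kb 13.1%, against 14.6% and 16.0%. The 10 genes thus lay above both other groups in 3 of the 8 steps and below both in 4. The differences were not tested, since 10 genes of 7 loci chosen by name give no replicates.

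**Figure D4:**
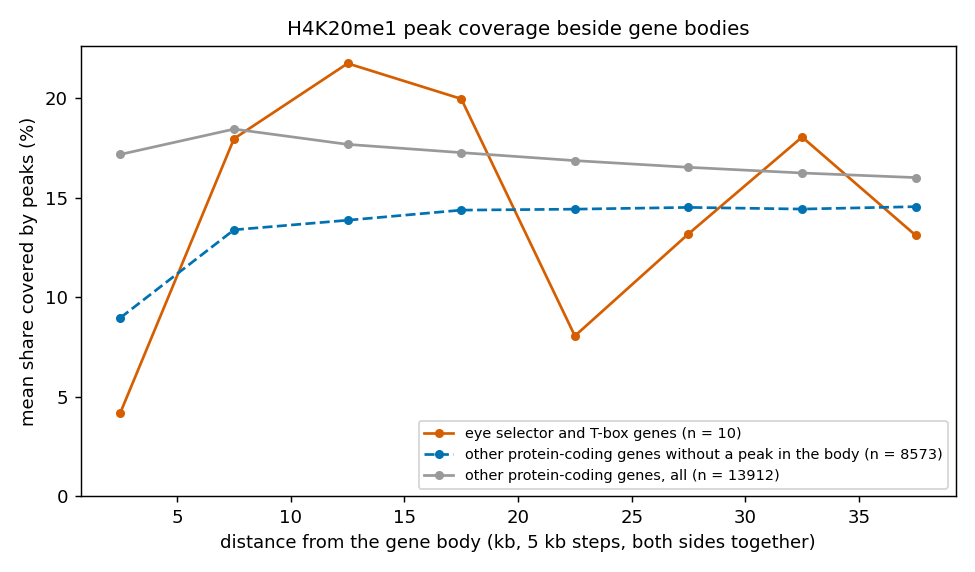
Mean share of sequence covered by H4K20me1 peaks (y axis, %) in 5 kb steps away from the gene body, both sides together (x axis, kb), for the 10 eye selector and T-box genes (orange), the other protein-coding genes without a body peak (blue, dashed) and all other protein-coding genes (grey). The orange line starts lowest, at 4.20%, lies at 18.0% to 21.8% between 5 and 20 kb and drops to 8.06% between 20 and 25 kb.

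Over the whole 20 kb flanks, the median covered share was 18.9% for the 10 genes, 22.4% for the eye selector genes and 11.7% for the T-box genes. All protein-coding genes had a median of 13.9%, and those without a body peak 7.44%. The direction against all protein-coding genes turned with the width of the flanks, to 8.64% for the 10 genes against 11.3% with 10 kb flanks and to 0% against 6.13% with 5 kb flanks. The shares of the single genes were 34.4% for dac, 25.6% for toy, 22.4% for so, 19.5% for ey, 19.1% for Doc1, 18.6% for Doc3, 11.7% for Doc2, 8.50% for eya and 0% for H15 and mid. So and eya had covered sequence on both sides, whereas in ey, toy, dac and each Doc gene 1 of the 2 flanks held no peak. For the Doc genes these empty flanks all lay in the same 47.6 kb interval that holds the cluster, so they are not separate cases.

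The sequence covered near these genes lay almost wholly in their neighbours. This follows from the lack of body peaks, since peaks of the whole list also lay mostly in protein-coding genes. The flanks were reached by 17 peaks, 150 to 15400 bp wide with a median of 3000 bp, against 1100 bp for all 6914 peaks. A wide peak is likelier to reach a flank than a narrow one, and full widths were counted, so this comparison favours wide values. Each of the 17 overlapped a protein-coding gene, and of their 61750 bp only 290 bp lay outside such genes, in the gaps between COX5B and Trmt6, CG5280 and smg, and Argk2 and Argk1 and past the end of Tpr2. Thus 99.5% of their sequence fell in protein-coding genes, compared with 97.7% of the sequence of all peaks. Of 39 other protein-coding genes within 20 kb, 22 had a peak (56.4%, against 38.3% of all protein-coding genes). At so, 9 of 13 neighbours had one, 5 of them under the single 8500 bp peak, so that neighbours are not independent of one another. The neighbours without a peak included bt, fuss, the Idgf genes, Nepl8, the intraflagellar transport gene IFT52, the nucleoside transporter gene Ent2, the fatty acid hydroxylase gene Fa2h and the galactokinase gene Galk.

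Relatives of these genes were likewise mostly without a body peak. Of 10 other genes of the Pax and so families, none had a peak in the body and 8 had one within 20 kb. Over all protein-coding genes, 38.3% had a body peak and 81.5% had one in the body or within 20 kb. Of those without a body peak, 70.0% had one within 20 kb. Distances to the nearest peak ran from 685 bp for Six4 to 39663 bp for gsb, with Poxm at 2424 bp, sv at 2083 bp, eyg at 3629 bp, toe at 5859 bp, prd at 8773 bp, Poxn at 10392 bp, gsb-n at 18082 bp and Optix at 25421 bp. Among the 3 other T-box genes, bi, which acts downstream of Dpp in the wing, had 11 peaks that covered 9.41% of its 72792 bp. The other two, org-1 and byn, had none, with the nearest peak at 7290 bp and 61931 bp. The median distance was 7316 bp for these 10 relatives, beside 6115 bp for the 10 genes described here.

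Among 12 other genes of retinal determination, 5 had a body peak (41.7%), close to the 38.3% of all protein-coding genes. These were tsh, covered to 85.7%, exd to 71.7%, hth to 45.6%, the kinase gene nmo to 45.2% and tio to 23.0%. Roles of the 12 genes in the wing disc were not compared between those with and without a body peak. Without a body peak were eyg, toe, Optix, dan, danr and the genes ato and gl, which act in photoreceptor formation. Of these 7 genes, eyg, toe and Optix are also among the relatives above.

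Transcription factor genes that pattern the wing disc carried body peaks in most cases. Of 15 such genes, 12 (80.0%) had a body peak, including salm, covered to 77.0%, sd to 69.8%, ap to 61.0%, bs to 41.1%, ara to 37.1% and nub to 27.9%. The share with a body peak was 38.3% over all protein-coding genes and 51.9% over the longest 10% of them. Coverage was slight in Dll (3.84%), mirr (3.01%) and rn (0.405%), and vg, pnr and tup had no body peak. Their median length, 20846 bp, exceeded the 13919 bp of the 10 genes. The Hox genes, another set of developmental regulators, had a body peak in 1 of 8 cases, against 38.3% of all protein-coding genes. This was Antp, where 7 peaks covered 6.02%. Only 3 of the 8 Hox genes had a peak in the body or within 20 kb, compared with 8 of the 10 eye selector and T-box genes. The share over all protein-coding genes was 81.5%. For Antp these were the 7 body peaks alone, with no covered sequence in its flanks. The median distance was 35517 bp for the Hox genes. These counts describe lists chosen with results known, and their differences were not tested.

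**Figure D5:**
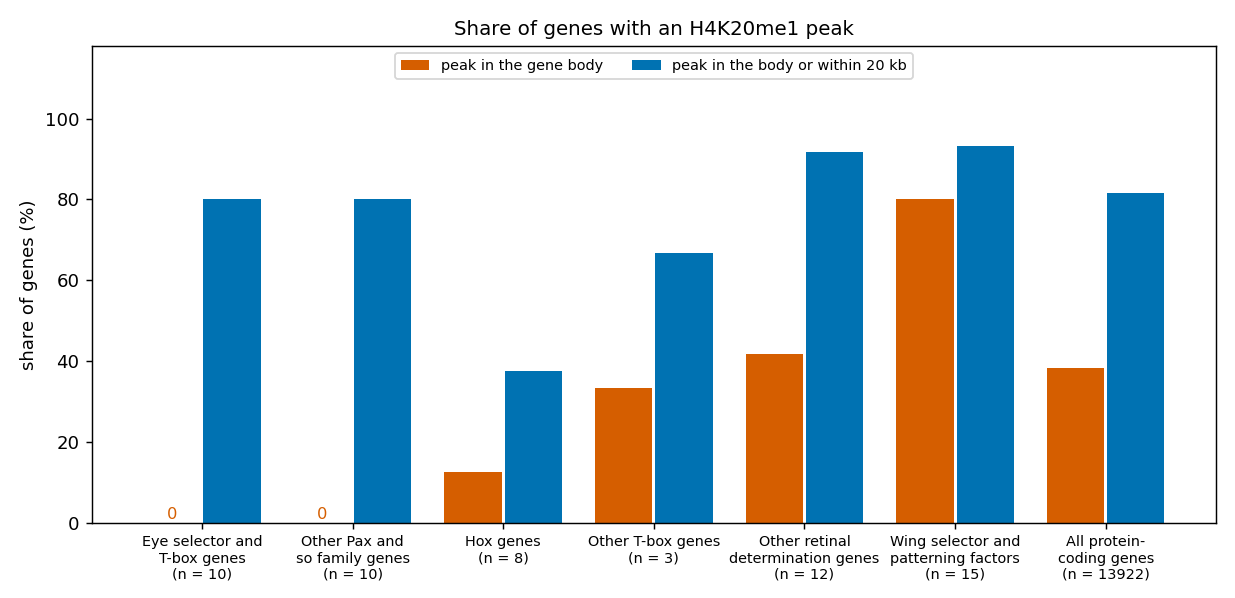
Share of genes (y axis, %) with an H4K20me1 peak in the body (orange) and in the body or within 20 kb (blue) for the 10 eye selector and T-box genes, 5 comparison lists and all protein-coding genes; n is the number of genes and some lists share genes. The orange share is 0 for the first 2 lists, 12.5% for Hox genes and 80.0% for wing patterning genes.

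A check of the tissue from the same list is limited, since peaks do not measure RNA. Of the wing disc selector genes sd, nub, ap, rn and vg, 4 had a body peak, though only 0.405% of rn was covered. Of elav, ato, gl, ninaE and chp, genes of eye differentiation, not all of which need be active in the larval eye disc, only elav did, covered to 26.1%. Over all protein-coding genes the share was 38.3%. The wing genes were longer, with a median of 23313 bp against 4812 bp. All genes of both lists had a peak in the body or within 20 kb. Other cells that a dissected disc can hold were represented by the muscle precursor genes Mef2 (3.53% covered), twi (0.477%) and htl (no peak) and by the hemocyte genes Hml, srp and Pxn, none with a peak. The part of other cell types in these results was not tested.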

How the data were processed

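H4K20me1 CUT&RUN libraries of Oregon-R wing discs were analysed through 1 deposited file, the authors' peak list for antibody (n = 3) against no primary antibody (n = 3), as the labels name it. It holds position and width of 6914 peaks in bp, with no score, count or value per library, so depth is unknown. In all 6914 rows the deposited width equalled end minus start plus 1, and every start and end fell on a grid of 50 bp. The build is dm6 and the tools named are Bowtie2, SAMtools, bedtools, edgeR and deepTools, per the submitters' processing notes, which give no roles. Peak caller, threshold and pooling: not given in the sources used here, so none is assumed.

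Genes came from the RefSeq table of the same assembly, which has no strand, exons or sequence. The planned promoter, motif and protein comparisons were therefore not run. Overlaps (at least 1 bp), distances (bases between gene body and peak) and covered shares were computed in Python 3.11.15 with numpy 2.4.6 and pandas 2.3.3, and the interval functions were tested on simulated data. Labels do not say whether libraries came from separate batches of animals. The genes named are the 10 listed, every protein-coding neighbour with a peak within 20 kb of them, and comparison lists; neighbours without a peak were named after their values were seen. Members, lists and settings were chosen with earlier results of these data known.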

Additional observations from a re-analysis of the deposited data

How the results depend on the processing

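The 7 alternatives for body peaks (fewer peaks, stricter overlap or other background genes) cannot raise a count of 0 and so say nothing about its stability. They move only the share of background genes with a peak, which ran from 18.3% to 50.9%. The count of 8 genes with a peak in the body or flanks stayed between 7 and 8 in 7 of 8 alternatives. The alternative with longer background genes could not move it. The count was 2 with 5 kb flanks, against 64.3% of all protein-coding genes and 42.1% of the other genes without a body peak. The share over all protein-coding genes also moved. It was 59.1% beside 7 of the 10 genes where at least 10% had to be covered, and 92.9% beside 8 of the 10 with 50 kb flanks. The median covered share of the flanks was 0% with 5 kb and 8.64% with 10 kb flanks, against 6.13% and 11.3% for all protein-coding genes. It was thus below that background near the gene and above it, at 18.9% against 13.9%, with 20 kb flanks. The median distance to the nearest peak was 9610 bp when peaks narrower than the median were left out, against 4073 bp for all protein-coding genes. With 1 value per locus, chosen after the data were seen, the medians were 19.5% and 5978 bp. No paired analysis was possible because the peak list holds no value per library, and no replicate could be left out for the same reason.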
